A study of Mus musculus with 10 samples.

Results

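The comparison described here asked what 24 h of Gdf11 changed in mouse embryonic stem cells on their way to neuromesodermal progenitors, the cells of the embryonic tail end that give rise to both spinal cord and paraxial mesoderm. It set the 2 libraries of cells given Gdf11 on day 6 and harvested on day 7 against the 2 libraries of untreated cells of the same day, which are 4 of the 10 bulk RNA-seq libraries of the study. All 10 came from wild-type cells of ES-Bruce4, a C57BL/6 embryonic stem cell line. Both day 7 groups had been plated without their embryo fibroblast feeders on gelatin, given 10 ng/ml human bFgf in N2B27 medium on day 0 and 5 µM CHIR99021, an inhibitor of Gsk3 that activates Wnt signalling, on day 2, and split on day 3. Treated cells then received 50 ng/ml human Gdf11 on day 6. Groups from day 2, day 3 and day 6, with 2 libraries each, entered the fit to share its estimate of spread. They therefore also entered the filter on low counts and the scaling of the libraries. With the 4 day 7 libraries alone, 17664 genes passed the filter. Day 6 levels are given below as a reference without a test. Limits of the model are that a single line was used, that feeders were removed by 1 round of settling, and that the labels do not say whether the medium of a given library held vitamin A, the precursor of retinoic acid. Genes were tested across the whole table: 18818 of 52459 listed genes passed the filter on low counts.

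Gdf11 is a growth factor of the Tgf-β family. It binds the type II receptors Acvr2a and Acvr2b, which recruit the type I receptors Tgfbr1 and Acvr1b, and these phosphorylate Smad2 and Smad3, which enter the nucleus with Smad4. In the embryo Gdf11 marks the transition from trunk to tail: without it the hindlimbs form too far back and posterior Hox genes come on late. Genes of its own feedback loop, such as Smad7, Skil and Pmepa1, are common readouts of Smad2/3 activity.

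Promoter sequences of 3 Tgf-β response genes that rose with Gdf11 are shown because each holds a copy of CAGACA, the core of the element that Smad3 and Smad4 bind. Tgif1 encodes a corepressor of Smad2, Col1a2 a chain of type I collagen, and Cdkn1a the cell cycle inhibitor p21. Each line gives the 250 bases before a RefSeq transcription start (GRCm38.p6), 5′ to 3′ on the strand of the gene, with CAGACA or its reverse complement TGTCTG in capitals. The windows are chr17:70853533-70853782 on the minus strand for Tgif1, chr6:4505368-4505617 on the plus strand for Col1a2 and chr17:29093519-29093768 on the plus strand for Cdkn1a.
Tgif1: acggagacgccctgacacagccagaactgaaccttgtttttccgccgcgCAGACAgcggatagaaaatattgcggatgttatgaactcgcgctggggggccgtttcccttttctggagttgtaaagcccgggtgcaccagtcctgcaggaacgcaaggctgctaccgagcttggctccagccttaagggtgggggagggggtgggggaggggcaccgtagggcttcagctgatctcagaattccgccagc
Col1a2: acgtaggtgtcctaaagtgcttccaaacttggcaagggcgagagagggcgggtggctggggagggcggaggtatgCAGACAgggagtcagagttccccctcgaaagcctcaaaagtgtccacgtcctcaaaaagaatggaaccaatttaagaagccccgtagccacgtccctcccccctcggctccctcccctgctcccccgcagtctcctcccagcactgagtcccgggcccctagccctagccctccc
Cdkn1a: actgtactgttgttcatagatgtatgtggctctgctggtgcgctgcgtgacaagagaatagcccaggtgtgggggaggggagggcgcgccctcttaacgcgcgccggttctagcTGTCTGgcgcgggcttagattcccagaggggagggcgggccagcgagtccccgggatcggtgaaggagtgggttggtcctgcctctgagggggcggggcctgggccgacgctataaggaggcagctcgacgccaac
In these windows the match begins 201 bases before the start in Tgif1, 175 in Col1a2 and 136, on the other strand, in Cdkn1a. CAGACA on either strand is common: 6913 of 32851 RefSeq windows of 300 bases (250 before to 50 after a start) held it, or 21%. Among windows of genes called and at least 2-fold higher with Gdf11, Col1a2 among them, the share was 163 of 683 (23.9%). It was 19 of 122 (15.6%) for those called and at least 2-fold lower and 1388 of 8387 (16.5%) for genes not called. Genes called at under 2-fold, which include Tgif1 and Cdkn1a, had a share of 1005 of 6374 (15.8%). GTCTAGAC, the palindromic Smad element, which shares its AGAC with the shorter motif, was rare, in 70 of all windows (0.213%) and in 3 of the 683 (0.439%). Windows were found for 12194 of the 18818 tested genes. These shares describe the letters of the windows and were not tested.

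The 4 libraries held 31708813 to 33418015 counts each. Log-scale levels correlated at 0.998 or above within each pair. The common coefficient of variation between replicates, beyond counting spread, was 3.34% as estimated over all 10 libraries. Nothing in the labels says that replicates were separate cultures, so the p-values below rest on library-to-library spread that may be technical only. The Gdf11 pair differed most between its members, where the mean chi-square over genes was 4.4 against 2.96 for the untreated pair, and groups of genes in which the first or the second Gdf11 library decides a count are named below. In bulk RNA, more or fewer cells of a type and more or less RNA in each such cell cannot be told apart.
Markers of the labelled cell type were present: in untreated day 7 cells the mean RPKM (counts per 1000000 library counts and per kilobase of gene length) was 113 for Sox2, 12.2 for Nkx1-2 and 8.54 for T, which is Brachyury. Bulk values do not show whether the same cells held these transcripts. Nkx1-2 and T were lower than on day 6, and the neural genes Sox1, Irx3 and Pax7 were also present (values below).

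Gdf11 changed a large part of the measured transcriptome, mostly by small amounts. At an adjusted p under 0.05, 7661 of 18818 genes were called (40.7%), 4241 of them higher with Gdf11 (22.5%) and 3420 lower (18.2%). The median size of a called change was 0.34 on the log2 scale. Changes of at least 2-fold ran mainly upward, with 799 genes higher (4.25%) and 180 lower (0.957%), and at 4-fold the counts were 226 and 22. The libraries of the groups did not overlap for 12765 genes (67.8%), which is the background for every statement below that groups were separate. The median change over all tested genes was 0.02, and gene lists are read against that value and against the 22.5% and 18.2%.

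**Figure D1:**
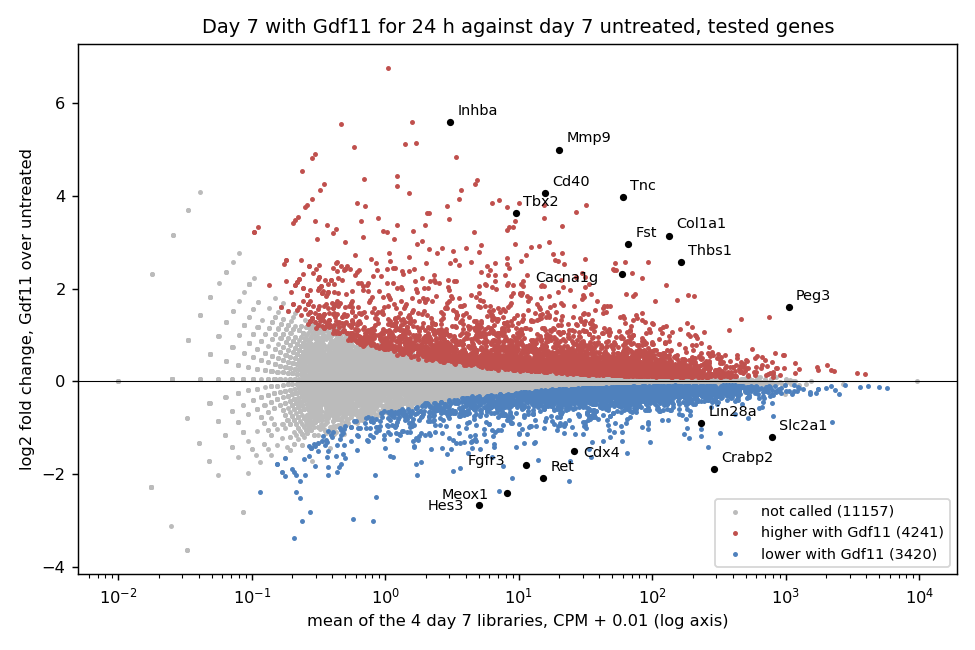
Log2 fold change with Gdf11 (vertical axis) against the mean of the 4 day 7 libraries in CPM (counts per 1000000 library counts, log axis) for the 18818 tested genes, red where called higher, blue where called lower and grey where not called. Black points are named genes; 4241 genes lie in red and 3420 in blue, and the larger changes are mostly upward.

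The 15 largest rises on the log2 scale lay between 3.78 and 5.59. Inhba, the subunit of activin A, was measured at 0.0898 and 0.150 CPM (counts per 1000000 counts of the library, with TMM-scaled totals) in untreated cells and at 4.77 and 7.18 CPM with Gdf11, a log2 fold change of 5.59 ± 0.36 (SE). Mmp9, a gelatinase, went from 1.05 and 1.39 to 30.4 and 47.7 CPM (5.00 ± 0.22). Tnc, the matrix protein tenascin C, went from 6.64 and 7.71 to 95.6 and 130.4 CPM (3.98 ± 0.13). In each of these genes the treated libraries lay far above the untreated ones, and the second Gdf11 library was the higher of the pair. The costimulatory receptor Cd40 rose from 1.80 and 1.78 to 26.6 and 33.1 CPM (4.06 ± 0.13). Others among the 15 largest rises were Brinp1 at 4.83, Adamtsl2 at 4.34, the small GTPase Rhoj at 4.25 (5.01 without the first untreated library), Ldlrad4 at 4.13, the G-protein subunit Gng11 at 3.93, Lin7a at 3.92, the neuronal calmodulin-binding protein Nrgn at 3.86, Nipal4 at 3.84, Col6a1 at 3.81, the proteoglycan Bgn at 3.80 and the neuregulin receptor Erbb4 at 3.78.
Falls were smaller. Hes3, a bHLH repressor of neural progenitors, stood at 8.08 and 9.21 CPM untreated and 1.44 and 1.28 with Gdf11, which is 6.35-fold lower (log2 fold change -2.67 ± 0.14). Meox1, a somite homeobox gene, went from 13.9 and 13.5 to 2.20 and 2.92 CPM (-2.42 ± 0.15), and Ret, the receptor of the Gdnf ligands, from 24.3 and 25.0 to 5.90 and 5.69 CPM (-2.09 ± 0.08). All 3 were low in both treated libraries and high in both untreated ones. The fall in retinoic acid-binding Crabp2 concerned an abundant transcript, from 448.9 and 467.1 to 123.7 and 123.4 CPM (-1.89 ± 0.05). The rest of the 15 largest falls were Sema3d (-2.37), the sodium channel subunit Scn4b (-2.09), the kainate receptor Grik1 (-1.94), Foxc2 (-1.86), Arg1 (-1.82), Fgfr3 (-1.81), the Rac GTPase regulator Arhgap24 (-1.71), ceruloplasmin Cp (-1.70), Sned1 (-1.64), the homeobox gene Pknox2 (-1.63) and Sparcl1 (-1.55). A fall here is against untreated day 7 cells. Sema3d, Fgfr3 and Sned1 were already low on day 6, with means of 2.69, 6.12 and 2.50 CPM. Their means were 11.9, 17.6 and 9.46 CPM in untreated day 7 cells and 2.31, 5.00 and 3.03 CPM with Gdf11. All others of the 15 stood well above the treated level on day 6.

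**Figure D2:**
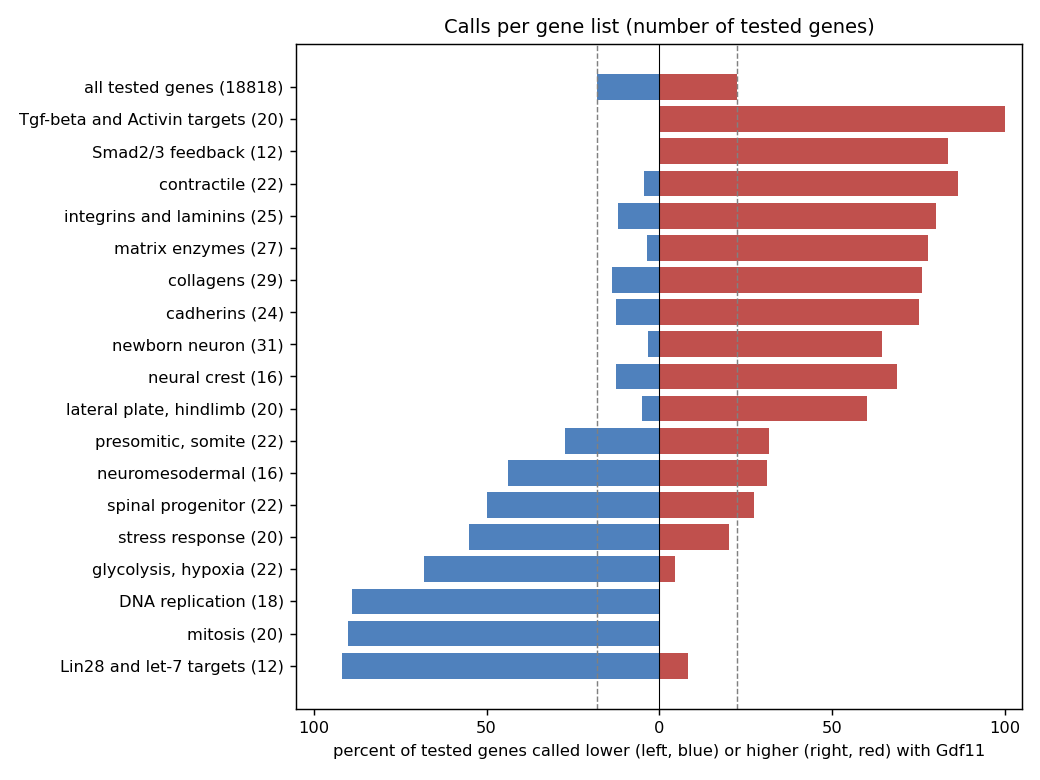
Percent of the tested genes of each list that were called higher (red, to the right) or lower (blue, to the left) with Gdf11, with the number tested in brackets; dashed lines mark the 22.5% and 18.2% of all tested genes. Tgf-β and Activin targets lie wholly to the right, and DNA replication and mitosis genes wholly to the left.

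Ligands that act through Smad2/3 rose as a group, while Gdf11 itself fell. Of 10 ligand genes tested, 7 were higher and 1 lower, with a median of 0.73. The endogenous Gdf11 transcript was at 53.7 and 50.3 CPM in untreated cells and 41.5 and 44.3 CPM with the protein added, a log2 fold change of -0.28 ± 0.06 (adjusted p = 0.000906). Both treated libraries were below both untreated ones. Inhbb, the subunit of activin B, rose from 0.958 and 0.813 to 4.64 and 5.85 CPM (2.56 ± 0.20). Tgfb1 went from 1.08 and 1.39 to 2.79 and 3.55 CPM and Tgfb3 from 4.52 and 4.94 to 8.21 and 9.08 CPM, both called higher. Per length, Gdf11 stayed the more abundant transcript, with a mean RPKM of 10.6 in treated cells against 0.935 for Inhba. Mstn, the closest relative of Gdf11, had no count in any of the 10 libraries.
Secreted inhibitors of these ligands rose too. Among 11 antagonists and latency proteins tested, 6 were higher and 1 lower (median 0.84). Fst, follistatin, which binds activins and Gdf11 and blocks them, was at 15.1 and 15.0 CPM untreated and 111.7 and 121.9 CPM with Gdf11. That is 7.76-fold higher (log2 2.96 ± 0.07, adjusted p = 1.83e-16), with no overlap. Lefty1, which competes with Nodal, rose from 28.2 and 27.1 to 57.0 and 57.1 CPM (1.04 ± 0.08), and Lefty2 rose from 37.3 and 35.3 to 73.2 and 68.3 CPM (0.96 ± 0.07). Wfikkn1, which binds Gdf11 and myostatin, fell from 32.3 and 36.8 to 24.7 CPM in both treated libraries (-0.49 ± 0.07). Fstl3 was called higher at levels of 0.241 to 0.995 CPM.

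Receptor genes moved in both directions, and the Smads that carry the signal changed little. Of 13 receptor genes, 7 were higher and 4 lower (median 0.17), with 2 lower without the first untreated or the second Gdf11 library. The type II receptors of Gdf11 fell: Acvr2b from 50.8 and 49.8 to 36.4 and 35.3 CPM (-0.49 ± 0.05, adjusted p = 1.69e-07) and Acvr2a from 69.2 and 65.5 to 60.5 and 55.9 CPM (-0.21 ± 0.06, adjusted p = 0.00443). Tgfbr2, the type II receptor of the Tgf-βs, rose instead, from 9.39 and 9.21 to 24.6 and 23.9 CPM (1.38 ± 0.09). Bmpr2 rose by 0.85, the Nodal co-receptor Tdgf1 by 0.48 and the pseudoreceptor Bambi by 0.45 on the log2 scale. Among the type I receptors of Gdf11, Tgfbr1 was at 208.0 and 190.0 CPM against 186.2 and 181.6 CPM (-0.11 ± 0.04, adjusted p = 0.048, lost in 3 of 14 alternative analyses), and Acvr1b, at 43.6 to 50.6 CPM, was not called (adjusted p = 0.0835). Tgfbr3 was called lower by 0.32, a call lost in 2 of the 14.
Of 11 Smads and nuclear partners, 7 were higher, none lower, and the median was 0.20; 4 were higher without either untreated library. Smad3 (136.0 and 137.5 against 136.7 and 144.6 CPM) and Smad4 (142.7 and 142.9 against 139.7 and 140.7 CPM) were not called, with adjusted p of 0.472 and 0.615. Smad2 was 0.17 ± 0.05 higher, a call that 4 alternatives lost. The Bmp-side Smad5 rose from 149.5 and 144.1 to 194.8 and 211.2 CPM (0.47 ± 0.04) and Tgif1 from 74.7 and 75.2 to 100.1 and 103.9 CPM (0.44 ± 0.04).

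Negative feedback genes of the pathway rose in 10 of 12 cases and fell in none (median 0.96). Pmepa1, which keeps Smad2 and Smad3 from the receptor, went from 9.10 and 9.45 to 43.9 and 44.0 CPM, 4.74-fold (2.24 ± 0.07, adjusted p = 6.82e-15). Smad7, which directs receptor breakdown, rose from 21.1 and 19.1 to 49.6 and 51.7 CPM (1.33 ± 0.07), and Skil, a Smad corepressor, from 76.0 and 77.8 to 169.7 and 181.2 CPM (1.19 ± 0.04). Ldlrad4, which also blocks Smad2/3 phosphorylation, was barely detected in untreated cells (0.329 and 0.452 CPM) and reached 6.58 and 7.25 CPM. The groups were far apart for each of these 4 genes, and day 6 levels lay near the untreated day 7 ones (7.92 and 7.04 CPM for Pmepa1, 17.1 and 18.0 for Smad7). All 20 tested targets of Tgf-β and Activin in other cells were called higher (median 0.71), and 19 were called without the second Gdf11 library. Col1a1, type I collagen, led them, from 25.9 and 28.7 to 231.3 and 251.7 CPM (3.15 ± 0.08). Thbs1, thrombospondin, which activates latent Tgf-β, rose from 44.5 and 49.1 to 260.2 and 298.1 CPM (2.58 ± 0.08). Col1a2 went from 16.3 and 16.5 to 84.6 and 88.8 CPM (2.40 ± 0.08) and the Cdk inhibitor Cdkn2b from 3.20 and 2.80 to 8.999 and 9.42 CPM (1.62 ± 0.12). The abundant fibronectin gene Fn1 rose less, from 748.1 and 779.6 to 1125 and 1136 CPM (0.57 ± 0.05).

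**Figure D3:**
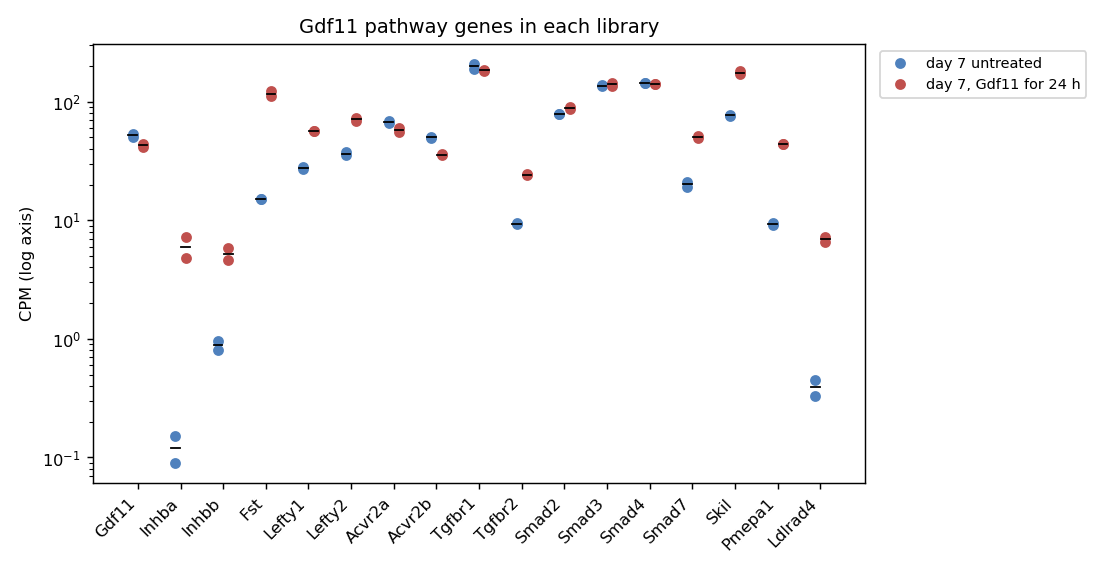
CPM (log axis) of ligands, antagonists, receptors, Smads and feedback genes in each untreated (blue) and Gdf11-treated (red) day 7 library, with a black line at the mean of 2. Treated points lie above untreated ones for Inhba, Fst, Smad7, Skil, Pmepa1 and Ldlrad4, below them for Gdf11, Acvr2a and Acvr2b, and close to them for Smad2, Smad3 and Smad4.

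Bmp ligands, which signal through Smad1/5 rather than Smad2/3, also rose. Of 14 ligands and antagonists of that branch 10 were higher and none lower (median 0.68); without the second Gdf11 library 6 were called higher. Bmp4 went from 18.5 and 17.0 to 53.1 and 64.9 CPM (1.73 ± 0.08) and Bmp2 from 3.02 and 3.13 to 12.6 and 14.1 CPM (2.12 ± 0.13). Response genes of this branch were split, with 7 of 12 higher and 2 lower. Tbx2 rose from 1.38 and 1.45 to 16.5 and 18.6 CPM (3.63 ± 0.13) and Msx2 from 6.76 and 7.32 to 18.5 and 20.4 CPM (1.46 ± 0.11), whereas Id3 fell by 0.29 and Msx1 by 0.23 on the log2 scale. The Id3 libraries were at 137.1 and 128.7 against 98.2 and 119.1 CPM, so the second treated library lay close to the untreated pair.

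Genes of neuromesodermal progenitors split between falls and rises. Of 16 tested, 7 were lower and 5 higher (median -0.34); without the second untreated or the second Gdf11 library 3 were called higher. Cdx4, a caudal homeobox gene, fell from 38.1 and 38.8 to 13.1 and 13.9 CPM (-1.51 ± 0.06, adjusted p = 9.63e-14). Cdx2 went from 43.1 and 40.7 to 24.7 and 25.3 CPM (-0.75 ± 0.05) and Nkx1-2, a gene of the caudal lateral epiblast, from 41.6 and 38.1 to 23.4 and 26.2 CPM (-0.68 ± 0.06). Day 6 cells held more of each, at 69.1 and 68.0 CPM for Cdx4, 109.4 and 113.3 for Cdx2 and 113.1 and 120.0 for Nkx1-2. Sox2, a neural gene of the marker pair, was slightly lower, at 228.9 and 234.6 against 192.4 and 193.2 CPM (-0.27 ± 0.04). Its partner T was higher, at 20.3 and 19.3 against 29.1 and 29.4 CPM (0.56 ± 0.06, adjusted p = 1.61e-07), with day 6 at 40.1 and 43.3 CPM. Evx1, a homeobox gene of the streak and tail bud, rose from 4.16 and 3.46 to 13.1 and 15.7 CPM (1.91 ± 0.11). Cyp26a1, which breaks down retinoic acid in the tail bud, went from 25.4 and 23.8 to 40.5 and 31.5 CPM (0.55 ± 0.09), with the Gdf11 libraries apart from each other. Fgf8 fell from 12.3 and 10.4 to 6.14 and 6.06 CPM (-0.89 ± 0.12), the Wnt target Sp8 by 0.97 and the ephrin receptor Epha5 by 1.36 on the log2 scale. Wnt3a stayed under 0.61 CPM in every day 7 library and was not called (adjusted p = 0.137).
Primitive streak and mesendoderm genes, most of them at low level, were higher in 7 of 10 cases and lower in 1 (median 1.35). This list also counts genes reported above: Fst, its largest rise, Evx1, and Fgf8, its only fall. Its summed level was 49.5 and 46.2 CPM untreated and 162.0 and 178.4 CPM with Gdf11. Fst made up 15.1 and 15.0 CPM of the untreated sums and 111.7 and 121.9 CPM of the treated ones. Gsc was at 0.479 and 0.361 CPM untreated and 1.25 and 1.71 with Gdf11, and Mixl1 at 0.120 and 0.211 against 0.627 and 0.653 CPM; both were called.

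**Figure D4:**
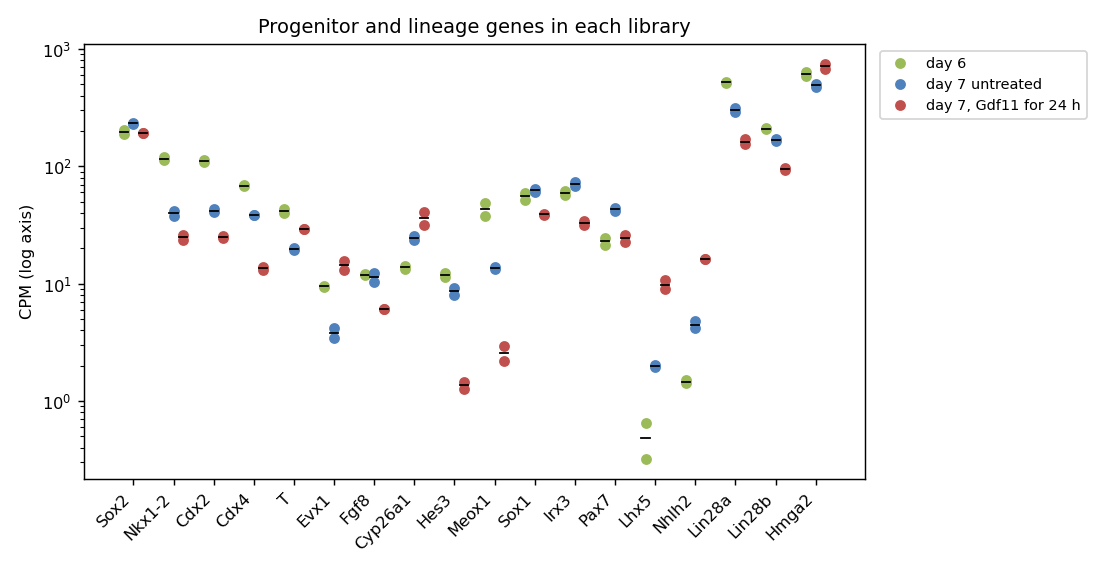
CPM (log axis) of progenitor and lineage genes in each library of day 6 (green), untreated day 7 (blue) and day 7 with Gdf11 (red), with black lines at the mean of 2. Cdx2, Cdx4, Nkx1-2, Lin28a and Lin28b are highest on day 6 and lowest with Gdf11, while T and Evx1 are higher with Gdf11 than in untreated day 7 cells.

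Paraxial mesoderm genes did not move one way. Of 22 presomitic and somite genes, 7 were higher and 6 lower (median 0.01), and leaving out any of the 4 libraries left 4 called higher. Besides Meox1, the falls included Pax9, a sclerotome gene, from 8.65 and 9.18 to 3.61 and 4.20 CPM (-1.19 ± 0.12), and the segmentation clock gene Hes7 at 0.187 to 0.838 CPM. Protocadherins of the presomitic mesoderm rose, Pcdh19 by 0.71 and Pcdh8 by 0.60, as did the secreted Wnt amplifier Rspo3, from 2.78 and 2.50 to 5.55 and 6.37 CPM (1.17 ± 0.13). Tbx6 and Msgn1, which specify presomitic mesoderm, were at or below 1.48 and 0.249 CPM and were not called (adjusted p = 0.947 and 0.0910).
Lateral plate, hindlimb field and intermediate mesoderm genes rose in 12 of 20 cases and fell in 1 (median 0.55); without the first Gdf11 library 8 were called higher. Prrx1, a homeobox gene of limb mesenchyme, went from 50.8 and 47.0 to 193.1 and 219.6 CPM, 4.22-fold (2.08 ± 0.07), and its relative Prrx2 from 2.51 and 2.56 to 7.18 and 8.24 CPM (1.6 ± 0.13). Foxf2 and Osr1 rose from under 1 CPM to 4.07 to 4.08 and 1.69 to 2.05 CPM. Isl1, a target of Gdf11 in the hindlimb field of the embryo, was at 0.569 to 0.909 CPM and was not called (0.53 ± 0.31, adjusted p = 0.185). Tbx4, the hindlimb gene, was at 0.898 and 0.482 against 1.22 and 1.21 CPM, with an adjusted p of 0.0237 that 5 of 14 alternatives lost. Fgf10 fell from 3.71 and 3.40 to 2.35 and 1.99 CPM (-0.71 ± 0.16).

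Spinal cord progenitor genes fell more often than they rose, while genes of newborn neurons rose. Of 22 progenitor genes 11 were lower and 6 higher (median -0.28), and the rises were the less stable part, with 1 to 3 called when any of the 4 libraries was left out. Irx3, a gene of intermediate spinal progenitors, fell from 67.5 and 73.4 to 31.9 and 34.05 CPM (-1.10 ± 0.06). Hes5, a Notch target, went from 28.0 and 30.2 to 15.6 and 15.4 CPM (-0.91 ± 0.08), dorsal Pax7 from 41.9 and 44.1 to 22.8 and 26.2 CPM (-0.81 ± 0.08) and the pan-neural Sox1 from 64.3 and 60.8 to 38.8 and 39.2 CPM (-0.68 ± 0.06). The dorsal gene Zic2 was higher, at 57.4 and 58.6 against 74.5 and 77.8 CPM (0.39 ± 0.05). Olig2, of motor neuron progenitors, was at 4.43 and 4.61 against 5.64 and 5.63 CPM, a difference that 8 of 14 alternatives did not call.
Of 31 neuron genes, 20 were higher and 1 lower (median 0.53). Lhx5, of interneurons, rose from 1.95 and 2.05 to 8.94 and 10.7 CPM (2.30 ± 0.16) and Nhlh2, a bHLH factor of young neurons, from 4.16 and 4.79 to 16.3 and 16.1 CPM (1.86 ± 0.12). Lhx2 also rose, at 0.718 to 2.48 CPM. In the neural crest list 11 of 16 were higher and 2 lower (median 0.57). Ngfr, the low-affinity neurotrophin receptor, went from 12.7 and 14.0 to 44.6 and 46.7 CPM (1.77 ± 0.08), Ets1 from 23.6 and 21.5 to 67.2 and 71.6 CPM (1.62 ± 0.08) and Tfap2b from 2.93 and 2.41 to 6.99 and 6.09 CPM (1.29 ± 0.15), while Lmo4 fell by 0.49.

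Retinoic acid genes did not move one way, with 7 of 17 higher and 6 lower. Those that fell included the binding proteins Crabp2 (above) and Crabp1, the latter from 241.0 and 264.1 to 192.7 and 180.8 CPM (-0.44 ± 0.06). Aldh1a2, the main synthesizing enzyme of the embryonic trunk, fell from 20.1 and 16.9 to 12.4 and 12.7 CPM (-0.56 ± 0.09), and the receptor and target gene Rarb from 25.3 and 26.4 to 19 and 19.6 CPM (-0.42 ± 0.08). The breakdown enzymes Cyp26a1 (above) and Cyp26b1, at 0.688 and 0.933 against 2.1 and 2.14 CPM, rose, as did the retinal reductase Dhrs3 (0.43 ± 0.10). The largest rise of the list was in a synthesizing enzyme, Aldh1a3, by 1.58 on the log2 scale. Its call was kept in 10 of the 12 alternatives that tested it.

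Wnt pathway genes rose more often than they fell. Of 23 ligands, R-spondins and secreted regulators 11 were higher and 2 lower (median 0.36), and of 18 targets 10 were higher and 5 lower (median 0.21), or 6 higher without the second untreated library. Rises among inhibitors of the pathway were Nkd2 from 22.0 and 20.7 to 65.8 and 66.0 CPM (1.63 ± 0.06), Nkd1 from 131.4 and 126.8 to 232.2 and 278.7 CPM (0.98 ± 0.06), Dkk1 from 6.85 and 5.33 to 16.5 and 14.6 CPM (1.35 ± 0.13) and Notum by 0.56. Sfrp2, a secreted Wnt binder, fell from 79.3 and 86.1 to 43.4 and 45.0 CPM (-0.90 ± 0.05). The growth targets Ccnd1 and Ccnd2 fell as well, with the values given below.
Among Fgf receptors, 2 of the 4 tested fell. Fgfr2 went from 110.3 and 112.2 to 57.1 and 54.6 CPM (-0.995 ± 0.05) and Fgfr3 from 16.6 and 18.6 to 4.92 and 5.07 CPM, and both treated libraries lay below both untreated ones for each. The day 6 mean of Fgfr3 was 6.12 CPM, near the treated level. Fgfr1 rose slightly, from 175.5 and 179.3 to 193.4 and 210.5 CPM (0.19 ± 0.04), and Fgfr4, at 4.12 to 5.30 CPM, was not called. Over 19 ligands and receptors 7 were higher and 6 lower, with 4 and 5 called higher without the first and second Gdf11 library. Fgf15 rose from 58.9 and 56.0 to 81.1 and 84.4 CPM (0.53 ± 0.05). Of 18 Erk target and feedback genes 11 were higher and 4 lower, or 2 lower without the second untreated or the first Gdf11 library. Il17rd, also called Sef, an inhibitor of Fgf signalling, rose from 166.4 and 151.4 to 311.5 and 352.6 CPM (1.06 ± 0.05) and Etv1 rose by 0.95, while Egr1 fell by 0.41 and Dusp4 by 0.28. Over 22 Notch genes 10 were higher and 6 lower. Hes6 rose from 48.6 and 47.2 to 91.7 and 91.1 CPM (0.93 ± 0.04), the target gene Heyl from 0.838 and 0.813 to 3.70 and 3.79 CPM (2.18 ± 0.19), and the falls were led by Hes3, with the ubiquitin ligase Dtx4 from 192.7 and 188.6 to 126.0 and 125.2 CPM (-0.60 ± 0.05). Hedgehog genes were mostly not called (2 of 14 higher, 4 lower); leaving out 1 library gave 0 higher (without the second untreated library) to 2 and 3 (without the first Gdf11 library) to 6 lower (without the second). By name, the response genes Gli1 and Ptch1 fell by 0.41 and 0.39.

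Genes of the extracellular matrix rose far more often than they fell. Of 29 collagen chains 22 were higher and 4 lower (median 0.70), of 30 matrix glycoproteins 21 were higher and 2 lower (median 0.52), and of 27 matrix enzymes and inhibitors 21 were higher and 1 lower (median 0.57). Col6a1 went from 4.37 and 4.09 to 53.9 and 64.7 CPM (3.81 ± 0.10) and Col6a2, which pairs with it in type VI collagen, from 3.23 and 3.31 to 22.8 and 27.0 CPM (2.93 ± 0.11). Col3a1 rose from 272.3 and 250.6 to 598.0 and 719.4 CPM (1.33 ± 0.07). The basement membrane chains Col4a5 (169.0 and 164.8 against 111.4 and 104.8 CPM) and Col4a6 (123.8 and 124.7 against 59.4 and 62.1 CPM) fell, by 0.63 and 1.03, in both treated libraries. Col4a1 had the highest counts of the collagens, and the treated libraries disagreed, at 1855 and 1739 against 2585 and 2011 CPM; its call (adjusted p = 0.0029) was lost in 3 of 14 alternatives. The cross-linking enzyme Loxl1 rose from 3.35 and 4.52 to 16.2 and 17.7 CPM (2.11 ± 0.12), and the matrilin Matn2 fell from 7.90 and 8.10 to 3.26 and 3.30 CPM (-1.29 ± 0.12).
Several of these genes also mark embryo fibroblasts, the feeder cells of the stem cell culture. In that marker list 9 of 11 were higher and 1 lower, and their summed level was 416.6 to 448.0 CPM untreated and 1250 to 1408 CPM with Gdf11. Of the list, 8 rose at least 2-fold, such as Lum, from 1.62 and 0.632 to 13.2 and 17.2 CPM (3.75 ± 0.21). The exceptions were Dcn, at 0.271 to 0.778 CPM in all 4 libraries and not called, and Fap, which fell from 8.59 and 7.59 to 5.49 and 6.09 CPM; S100a4 had too few counts to test. The part of fibroblasts in the matrix rises was not tested.

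Adhesion and contractile genes rose with the matrix. Of 25 integrin and laminin subunits 20 were higher and 3 lower (median 0.57), led by Itga4, the fibronectin and Vcam1 receptor subunit, from 5.53 and 5.24 to 36.7 and 36.7 CPM (2.77 ± 0.08), whereas Itga8 fell from 27.2 and 24.9 to 12.6 and 14.0 CPM (-0.97 ± 0.09) and the laminin receptor subunit Itga6 by 0.28. Of 22 contractile genes 19 were higher and 1 lower (median 0.76), for example Tagln, from 41.1 and 47.1 to 121.8 CPM in both treated libraries (1.46 ± 0.07), and Mylk, myosin light chain kinase, from 5.53 and 5.96 to 20.3 and 27.2 CPM (2.05 ± 0.13). Abundant cytoskeletal genes rose too: filamin Flna from 783.4 and 788.4 to 1106 and 1229 CPM and Tmsb4x, thymosin β4, from 421.4 and 407.1 to 1012 and 1159 CPM (1.39 ± 0.05). Cadherins were higher in 18 of 24 cases and lower in 3 (median 0.63). Cdh11, a mesenchymal cadherin, rose from 86.0 and 74.3 to 258.9 and 325.1 CPM (1.87 ± 0.08), while the neural Cdh2 fell from 220.3 and 211.5 to 159.9 and 177.6 CPM (-0.36 ± 0.05).
Mesenchymal and epithelial genes rose side by side. Of 14 mesenchymal factors 10 were higher and 2 lower (median 0.64): Snai1, a repressor of E-cadherin, went from 5.83 and 5.81 to 12.8 and 15.0 CPM (1.25 ± 0.12) and Twist2 from 2.57 and 2.77 to 11.9 and 14.5 CPM (2.30 ± 0.13). Snai2 was 0.36 ± 0.11 higher, a call that 4 alternatives lost. Of 16 epithelial genes 12 were higher and none lower (median 0.52); 9 and 13 were called without the first and second Gdf11 library. The keratins Krt8 (58.4 and 59.7 against 133.0 and 108.9 CPM) and Krt18 (75.2 and 82.0 against 161.3 and 133.1 CPM), the splicing factor Esrp2 and the tight junction gene Cldn6 were all higher in the first treated library than in the second. The summed level of the epithelial list was 881.0 and 739.8 CPM in the treated pair and 489.0 and 518.0 CPM untreated. Endoderm and node genes showed the same order, at 670.7 and 565.2 CPM against 399.8 and 410.1 CPM, with 11 of 15 higher and 1 lower. The part of endoderm or surface epithelium in these rises was not tested.
Axon guidance genes were higher in 26 of 42 cases and lower in 8 (median 0.36). Robo2 rose from 35.2 and 33.6 to 84.8 and 91.2 CPM (1.35 ± 0.06), Sema5a from 33.8 and 29.5 to 100.0 and 125.2 CPM (1.83 ± 0.08) and Nrp1 from 10.4 and 10.5 to 31.01 and 34.3 CPM (1.65 ± 0.09). Sema3a, a ligand of Nrp1, fell from 155.8 and 148.3 to 85.2 and 84.7 CPM (-0.84 ± 0.05).

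Lin28 genes fell, and pluripotency genes rose modestly. Of 12 genes of the Lin28 and let-7 list 11 were lower and 1 higher (median -0.36). Lin28a, an RNA-binding protein that blocks let-7 maturation and marks early progenitors, went from 311.7 and 291.1 to 169.7 and 153.9 CPM (-0.90 ± 0.04, adjusted p = 2.42e-12), and Lin28b from 171.0 and 165.9 to 93.2 and 96.1 CPM (-0.83 ± 0.04). On day 6 they were at 525.3 and 513.2 and at 211.1 and 206.9 CPM. Igf2bp2 fell from 361.8 and 356.1 to 253.9 and 256.3 CPM (-0.49 ± 0.04). Hmga2, itself a let-7 target, rose from 506.1 and 477.7 to 680.4 and 748.3 CPM (0.54 ± 0.05). Pluripotency and epiblast genes were higher in 19 of 21 cases and lower in none (median 0.35), yet without the first Gdf11 library 11 were higher and 1 lower. Markers of undifferentiated stem cells summed to 747.0 and 652.2 CPM in the treated libraries and 552.0 and 530.0 CPM untreated, with 8 of 8 called, and 5 without the first Gdf11 library. Utf1 rose from 18.7 and 21.1 to 30.0 and 28.5 CPM (0.56 ± 0.07). The part of residual stem cells in these rises was not tested.

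Proliferation genes fell by small amounts. Of 18 DNA replication genes 16 were lower and none higher (median -0.28), and of 20 mitosis genes 18 were lower and none higher (median -0.20). Rrm2, a subunit of ribonucleotide reductase, went from 481.7 and 473.2 to 355.8 and 350.5 CPM (-0.43 ± 0.04), and the mitotic kinase Aurkb from 112.5 and 124.0 to 87.8 and 87.4 CPM (-0.43 ± 0.05). Myc genes, G1 cyclins and Cdk inhibitors did not move one way, with 8 of 19 lower and 4 higher (median -0.10). Myc fell from 43.5 and 41.1 to 19.4 and 22.6 CPM (-1.01 ± 0.07, adjusted p = 3.76e-10), Ccnd1 from 712.5 and 695.2 to 530.9 and 562.5 CPM (-0.36 ± 0.04) and Ccnd2 from 793.8 and 772.8 to 549.3 and 592.5 CPM (-0.46 ± 0.05). The 4 rises were the Cdk inhibitors Cdkn2b (above), Cdkn2a (0.50 ± 0.07), Cdkn1a from 226.5 and 236.3 to 334.4 and 350.5 CPM (0.57 ± 0.04) and Cdkn1c from 103.8 and 107.4 to 160.1 and 172.0 CPM (0.65 ± 0.05). Myc was higher on day 6, at 66.4 and 61.8 CPM.
Transcripts of the glycolysis and hypoxia list fell more often than they rose. In that list 15 of 22 were lower and 1 higher (median -0.26). Slc2a1, the glucose transporter Glut1, was among the largest losses by level, from 1053 and 1125 to 448.8 and 501.5 CPM, 2.29-fold lower (-1.20 ± 0.05, adjusted p = 7.72e-14). Its day 6 libraries stood at 1081 and 1025 CPM, near the untreated ones of day 7. Ldha, lactate dehydrogenase, went from 991.5 and 1014 to 612.5 and 586.8 CPM (-0.74 ± 0.04) and Eno1 from 733.9 and 780.4 to 488.7 and 521.3 CPM (-0.58 ± 0.04). Of 20 stress response genes 11 were lower and 4 higher (median -0.26). The largest falls of this list were the serine synthesis enzyme Psat1, from 666.9 and 657.3 to 381.8 and 386.2 CPM (-0.79 ± 0.03), Chac1 by 0.84, Trib3 by 0.63 and the cystine transporter Slc7a11 by 0.79, while Calr, Pdia4, Dnajb9 and Xbp1 rose by 0.29, 0.24, 0.38 and 0.32. Gapdh, which has many near-identical copies in the genome, was counted at only 28.3 to 39.1 CPM in these libraries, so the counts of genes with such copies, Ldha, Eno1 and Tmsb4x among them, are uncertain.

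**Figure D5:**
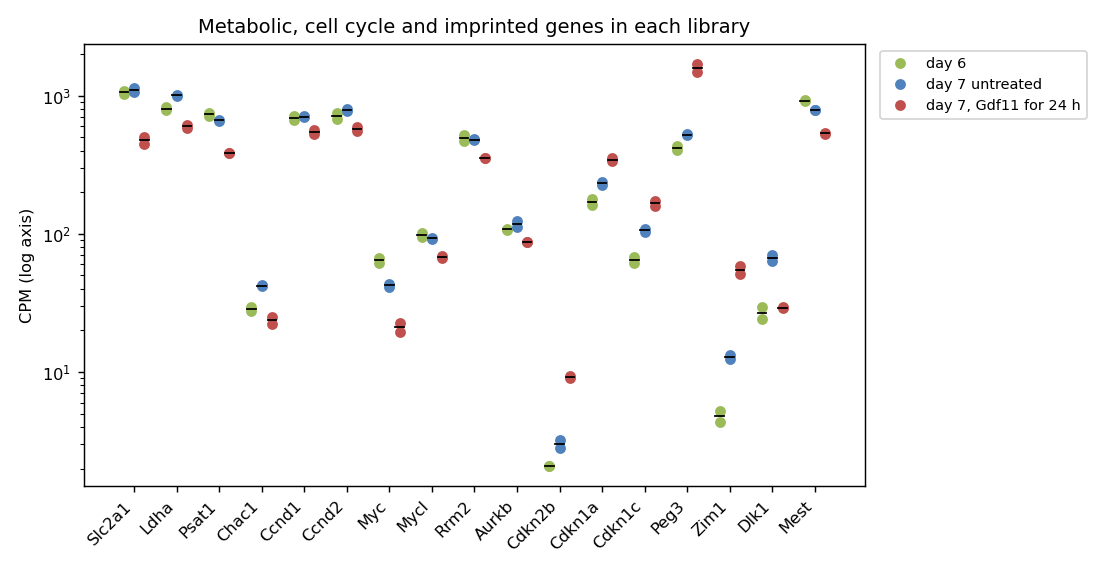
CPM (log axis) of metabolic, cell cycle and imprinted genes in each library of day 6 (green), untreated day 7 (blue) and day 7 with Gdf11 (red), with black lines at the mean of 2. Slc2a1, Ldha, Psat1, Ccnd1, Ccnd2 and Myc are lowest with Gdf11, and Cdkn2b, Peg3 and Zim1 highest.

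Imprinted genes did not move one way (10 of 22 higher, 4 lower), but Peg3 and Zim1, neighbours on chromosome 7, both rose. Peg3, a paternally expressed zinc finger gene, went from 526.0 and 518.2 to 1478 and 1689 CPM (1.6 ± 0.05, adjusted p = 5.96e-15). That was the largest gain in CPM among called genes whose groups did not overlap. Zim1, the maternally expressed gene next to it, rose from 12.4 and 13.2 to 51.1 and 58.4 CPM (2.1 ± 0.09). H19 rose from 105.5 and 97.1 to 252.1 and 191.3 CPM (1.13 ± 0.09), with the treated libraries apart, while Dlk1 fell from 63.5 and 70.5 to 29.5 and 28.9 CPM (-1.20 ± 0.07) and Mest from 792.3 and 784.3 to 540.1 and 525.0 CPM (-0.57 ± 0.03). Chromatin enzymes moved little: 11 of 25 were higher, 7 without the second untreated library, and 3 lower, all by under 2-fold. The DNA methyltransferase of new marks, Dnmt3a, rose from 121.5 and 123.6 to 172.1 and 179.9 CPM (0.52 ± 0.04) and the maintenance genes Dnmt1 and Uhrf1 fell by 0.22 and 0.34.
Hox calls differed between paralogue groups, and genes of groups 5 to 9 went both ways. None of 12 genes of groups 1 to 4 was called higher and 5 were lower, of 15 in groups 5 to 9 there were 10 higher and 2 lower, and all 12 of groups 10 to 13 were higher with a median of 1.66; without the second Gdf11 library the middle count was 6. Hoxc11 went from 2.03 and 1.78 to 9.31 and 10.98 CPM (2.41 ± 0.15), and Hoxb9 fell from 198.8 and 218.8 to 136.2 and 158.7 CPM (-0.50 ± 0.06).
Voltage-gated and potassium channels were mostly not called, with 9 of 26 higher and 2 lower. Cacna1g, a T-type calcium channel, rose from 19.4 and 20.1 to 90.3 and 105.3 CPM (2.31 ± 0.07) and the channel subunit Cacna2d1 from 19.8 and 18.0 to 49.8 and 60.7 CPM (1.55 ± 0.08). Runx1, which marks blood-forming endothelium among other cells, rose from 10.98 and 8.82 to 46.2 and 53.2 CPM (2.33 ± 0.11), the only 1 called of 10 tested blood and endothelium markers (3 higher without the second Gdf11 library, 1 higher and 2 lower without the first); the endothelial genes Cdh5 and Kdr were at 0.342 to 0.452 and 1.29 to 1.85 CPM and were not called. The forebrain and midbrain list had 2 of 8 called, both higher, against 1 higher and 1 lower without the first Gdf11 library and 1 higher without the first untreated one. Fosl2, a Tgf-β-responsive AP-1 subunit, led 10 rises among 19 immediate early genes, from 9.07 and 10.5 to 29.8 and 33.1 CPM (1.69 ± 0.08), of which 4 were lower.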

How the data were processed

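The tested values were raw read counts per gene, deposited by the authors as 1 table for the 10 libraries and headed by gene symbol. Per the submitters' processing notes, HISAT2 2.1.0, STAR, featureCounts 1.6.3, limma and the mm10 build were used; which tool made which table is not given in the sources used here. A second deposited count table, by Ensembl gene, served as an alternative. The members of the comparison, the gene lists and the tests were chosen with earlier results of these data known.

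Counts were fitted in edgeR 4.0.16 (R 4.3.3) with TMM scaling, filterByExpr and the quasi-likelihood test, over all 10 libraries with 1 term per group; p-values were Benjamini-Hochberg adjusted over the 18818 tested genes and called under 0.05. CPM used the scaled library sizes, and SEs came from the fold change and F. Named genes were the 15 largest rises and falls at 5 CPM or more in a group, excluding Hox and unnamed loci, and the 10 largest rises and falls in CPM. Both rankings were made among called genes whose groups did not overlap. Up to 4 called members per list and direction and a set of pathway genes were also named. Gapdh, S100a4, Dcn, Fgfr1, Fgfr4, Cdh5 and Kdr lie outside this rule and were chosen after their values were seen. DESeq2 1.42.0 and limma 3.58.1 were among 14 alternatives. Promoters came from RefSeq. Precision is limited by 2 libraries per group at 31708813 to 33418015 counts. Some genes that the rule names are not reported here.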

Additional observations from a re-analysis of the deposited data

How the results depend on the processing

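None of the 4 counts over all tested genes (higher, lower, and each at 2-fold) moved by over 1.5 times under any of the 14 alternatives. Counts of single gene lists did so more often. Many such moves on leaving out 1 library are given beside those lists, but not all, and those under other alternatives are not. Under DESeq2, for example, 1 spinal cord progenitor gene was called higher, against 6 in the analysis reported. Under the alternatives no called change of a named gene reversed. Genes called ranged from 5904 (DESeq2) to 7807, the latter with the replicate block, that is, with the replicate number as a term; 7614 of the 7661 were called in the same direction there. The labels do not say whether the numbers pair the libraries. The correlation of the replicate differences was 0.0887 between the 2 day 7 groups and -0.0758 to 0.0999 between other groups. Such low values cannot decide it, since the differences within a pair include counting spread. Of the called genes, 49.2% (no filter on low counts) to 55.2% were higher, against 55.4% in the analysis reported. Leaving out 1 day 7 library gave 6154 to 6657 genes called; the lone library of a group is then assumed to vary like the others. Low counts limit the precision of genes under about 1 CPM. Among the named genes Olig2 lost its call in 8 alternatives and Pax3 and Gli2 theirs in 6.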

Other observations

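Ribosomal protein genes and nuclear genes of the respiratory chain were lower with Gdf11 more often than higher: 54 of 82 cytoplasmic ribosomal protein genes were lower and 1 higher (median -0.18), 44 of 77 mitochondrial ribosomal protein genes were lower and none higher (median -0.15), and of 79 nuclear subunits of oxidative phosphorylation 48 were lower and 2 higher (median -0.16). The mitochondrially encoded protein genes went the other way, with 5 of 7 tested higher and none lower (median 0.18), among them mt-Cytb at 3752 and 3676 against 4214 and 4127 CPM and mt-Nd1 at 3228 and 3196 against 3635 and 3620 CPM. Of 33 replication-linked histone genes tested, 10 were lower and 1 higher (median -0.60). All 33 together held only 35.3 and 34.1 CPM untreated and 31.6 and 31.5 CPM with Gdf11, so the median rests largely on low counts. Of 7 insulin-like growth factor binding protein genes 5 were higher and none lower (median 0.79). These families were defined by gene name after the values had been seen, and many ribosomal protein and histone genes have near-identical copies, so their counts are uncertain. Among the largest changes in CPM, nucleolin Ncl was lower, at 2837 and 2630 against 2310 and 2240 CPM, as was the elongation factor Eef2, at 3706 and 3784 against 3423 and 3472 CPM. The translation factor Eif4g2 was higher, at 2023 and 1948 against 2278 and 2428 CPM. Gm42418, a locus that overlaps a ribosomal RNA repeat, was at 3181 and 2609 CPM untreated and 1613 and 1534 CPM with Gdf11, a fall of 0.88 on the log2 scale. Its part in other results was not tested.

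Interferon response genes were higher in 10 of 18 cases and lower in 2 (median 0.55). Ifit1 and Isg15 rose but stayed at or below 1.32 and 2.38 CPM, while the class I genes H2-K1 (135.3 and 143.6 against 98.9 and 80.2 CPM) and H2-D1 (43.5 and 47.0 against 37.4 and 30.8 CPM) fell. Cholesterol and fatty acid synthesis genes were lower in 10 of 23 cases and higher in 3 (1 without the second untreated or the second Gdf11 library), and of these the mevalonate enzyme Mvd fell from 216.4 and 228.0 to 163.0 and 160.6 CPM. Of 18 p53 targets 6 were higher and 4 lower: the pro-apoptotic Pmaip1 rose from 171.7 and 159.9 to 304.4 and 285.0 CPM and Plk2 from 90.0 and 89.8 to 151.2 and 167.3 CPM, whereas Bbc3 fell from 31.4 and 32.6 to 23.4 and 22.7 CPM.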
